A study of Oryctolagus cuniculus with 12 samples.

Results

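RNA of the rabbit basilar artery was compared between day 5 and day 3 after an experimental subarachnoid hemorrhage. In such a hemorrhage blood enters the space that holds the cerebrospinal fluid, and the basilar artery lies in this space along the brain stem. The comparison holds 6 of the 12 arrays of the series, the 3 whose source name gives day 5 and the 3 whose source name gives day 3. The remaining arrays are 3 controls labelled normal, taken at day 0, and 3 of day 7 after the hemorrhage. Each array carries the total RNA of 1 basilar artery sample, labelled with Cy3 in a single colour. All animals were Oryctolagus cuniculus, and the labels of the day 3 and day 5 samples differ only in the day after hemorrhage. Strain, age, sex and the way the bleeding was produced are not given in the sources used here. Whether the 3 samples of a day came from separate animals is not stated, so the p-values measure no more than the spread among samples, and part or all of that spread may be technical.

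Blood that clots around a cerebral artery is broken down over days, and the hemoglobin it releases is toxic to the vessel wall and inflammatory. Arteries bathed in such blood can narrow with a delay of days, which is called vasospasm. An injured vessel typically goes through an early phase of acute-phase proteins, cytokines and cell division, after which these programs subside while scavenging, repair and matrix production go on. Resolution is the usual name for that later phase. The labels give days and no phases, and whether day 3 and day 5 fall into these phases was not tested.

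The signal level is given as log2 of the processed signal relative to the 75th percentile of its array, so that 0 is a signal at that percentile and each step of 1 is a doubling. On the 6 arrays the 75th percentile lay between 146 and 191 scanner units, no spot was saturated, and 58.2% to 60.8% of the spots on day 3 and 62.3% to 64.0% on day 5 were well above background. Each of the 3 slides held 1 array of each group, and a group had the same position on every slide, so position and day cannot be told apart. All 7 measured smooth muscle markers were above background on every array of both days, with summed linear levels of 395 to 477 on day 3 and 379 to 469 on day 5. They show smooth muscle but do not single out the basilar artery. The 3 skeletal muscle markers with a probe summed to 109 to 158 on day 3 and 110 to 181 on day 5. Of them TNNT3 was not well above background on any array of either day, and the source of the signal was not tested. The glial markers GFAP and AQP4 were not well above background on any array of either day. With RNA from whole vessel samples, fewer cells of a type and less RNA per cell cannot be told apart. The number of arrays, 3 per day, limits the precision.

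Few genes passed the test between the days. Of 26077 tested probes 3 were called (limma, Benjamini-Hochberg adjusted p below 0.05, two-sided), which is 0.0115%, and all 3 were lower on day 5. They belong to CCK, which encodes preprocholecystokinin, to CXCL8, the chemokine interleukin 8 that attracts neutrophils, and to an expressed sequence tag without a gene name. At an unadjusted p below 0.05 there were 984 probes higher (3.77%) and 858 lower (3.29%), together 7.06%. Over the 7455 genes, each at its tested probe with the highest mean, 1 was called (0.0134%), and it was CCK. At that share a gene list without a call is the usual outcome and sets no list apart. Testing required a signal well above background on every array of day 3 or on every array of day 5.

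Most genes lay close together on both days. The difference, day 5 minus day 3, was within 0.5 on the log2 scale for 6654 genes (89.3%), and its median over all genes was 0.02. Differences over 1 were measured for 71 genes higher and 86 genes lower on day 5. The 95% interval lay within 1 of zero for 6075 genes (81.5%), and its median width to either side was 0.473 over probes, a 1.39-fold difference. The 3 day 5 arrays lay above the 3 day 3 arrays for 565 genes (7.58%) and below them for 561 genes (7.53%). In the same fit and over the same probes, 1765 probes were called on day 3 against the controls (6.77%) and 546 on day 5 against the controls (2.09%), comparisons that share the control arrays with each other and the day 3 or day 5 arrays with this one. Day 7 against day 5 gave 0 called probes in limma and 396 at an unadjusted p below 0.05 (1.52%).

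**Figure D1:**
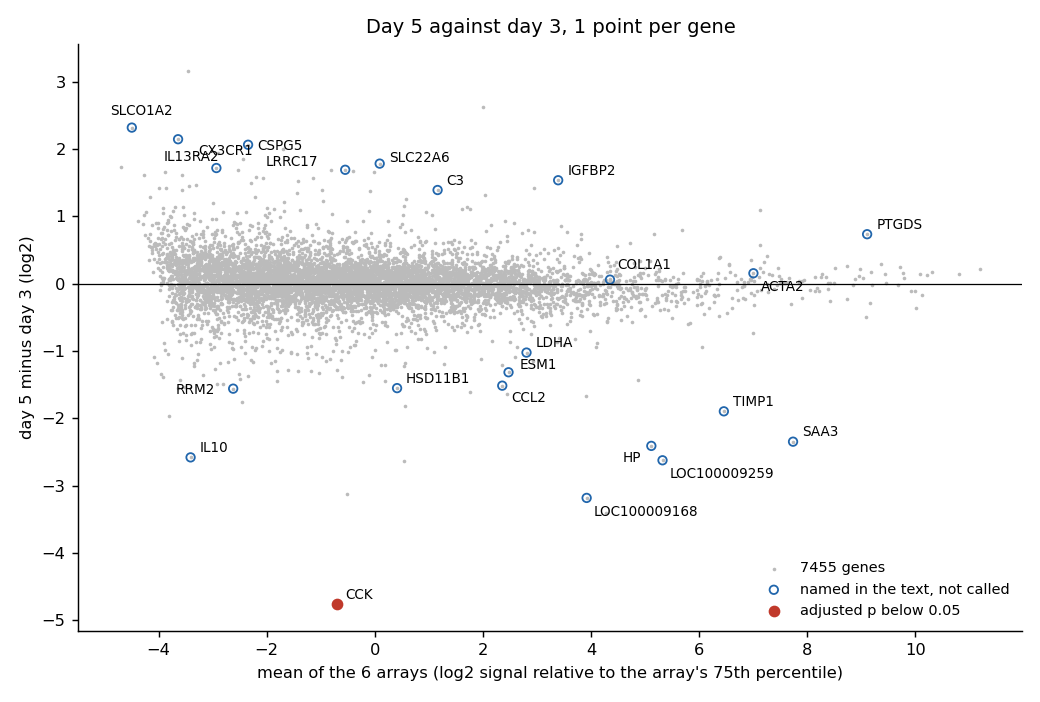
Difference between day 5 and day 3 (log2) against the mean signal of the 6 arrays (log2 relative to the array's 75th percentile), 1 point for each of 7455 genes. CCK at -4.76 is the 1 gene with an adjusted p below 0.05, and the open circles are genes described in the text without a call.

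CCK had the largest difference of all genes. Its product is a peptide hormone made by gut endocrine cells and by many neurons. The level on day 3 was 0.88, 1.27 and 2.88 on the 3 arrays, and on day 5 it was -2.94, -3.32 and -3.01. All 3 day 5 arrays lay more than 3 log2 steps below every day 3 array. CCK fell by 4.76 on the log2 scale (SE 0.46, 95% interval -5.76 to -3.76, adjusted p = 0.00826), which is 27.1-fold lower, with -3.81, -4.59 and -5.88 within the 3 slides. The controls averaged -3.21 ± 0.45 and day 7 averaged -3.40 ± 0.55 (SD, n = 3 each), and 2 of 3 arrays were above background in each of these groups. Day 5 against the controls was 0.12 (SE 0.46, adjusted p = 0.948), while day 3 against the controls was 4.88 (adjusted p = 0.000141). The adjusted p of the fall was 0.0531 without day 5 replicate 3 and 0.166 in a fit of the 6 arrays alone, and with normexp background correction the difference was -2.45 with its call kept.

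CCK was measured by a single probe of 60 bases. Its sequence is shown because the call rests on it alone. The array lists the probe also for LOC100345534, so the transcripts of both loci cannot be told apart. Read from its first base, the probe is an open frame that ends with a stop codon, given in capitals, so that it covers the end of the coding sequence.
CCK probe A_04_P089317: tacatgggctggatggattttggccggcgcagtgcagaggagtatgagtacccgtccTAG

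CXCL8 was covered by 7 probes. On each of them all 3 day 5 arrays lay below all 3 day 3 arrays, against 6.43% of all probes tested, but the probes share a target and are not replicates. The differences ran from -0.80 to -2.57. The called probe, A_04_P004966, read -0.88, -0.96 and -1.23 on day 3 and -2.67, -3.36 and -2.87 on day 5. It fell by 1.94 (SE 0.20, adjusted p = 0.00912), which is 3.85-fold lower. No control array was well above background for it, so on this probe day 5 was at least 2.50-fold above the controls (adjusted p = 0.00314). The probe A_04_P004967, moved by 1 base, had a difference of -1.99 (adjusted p = 0.0767). The probe A_04_P004968, which lies upstream, had -1.26 (adjusted p = 0.115). The brightest probe, A_04_P004970, which stands for the gene, had -0.80 (SE 0.31, adjusted p = 0.605). Against the controls, day 5 was called higher also on A_04_P004967, by at least 2.30-fold (adjusted p = 0.0182). Day 5 was not called against the controls on the other probes. It was 0.12 higher on A_04_P004968 (adjusted p = 0.862), 0.37 on A_04_P004970 (0.66) and 0.46 on A_04_P004969 (0.637). On A_04_P000626 it was 1.66 higher (0.241), and on A_04_P000627 at least 2.31-fold higher (0.0697).

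Both probe positions are shown because probes of the same transcript gave differences of unequal size. In the first, the bases shared with the second and the stop codon that ends the open frame are in capitals, and in the second the 9 shared bases.
CXCL8 probe A_04_P004966: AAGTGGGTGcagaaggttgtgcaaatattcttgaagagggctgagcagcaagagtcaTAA
CXCL8 probe A_04_P004968: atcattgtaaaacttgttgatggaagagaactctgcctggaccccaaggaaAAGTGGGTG

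The call of A_04_P004966 ended with normexp background correction, where the difference was -0.33 (adjusted p = 0.254). It ended too without day 3 replicate 2 (0.0633) and without day 5 replicate 3 (0.0531). The summed linear level of the 4 measured neutrophil markers was 2.0 to 2.75 on the day 3 arrays and 1.22 to 1.94 on the day 5 arrays, and its part in the result was not tested.

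**Figure D2:**
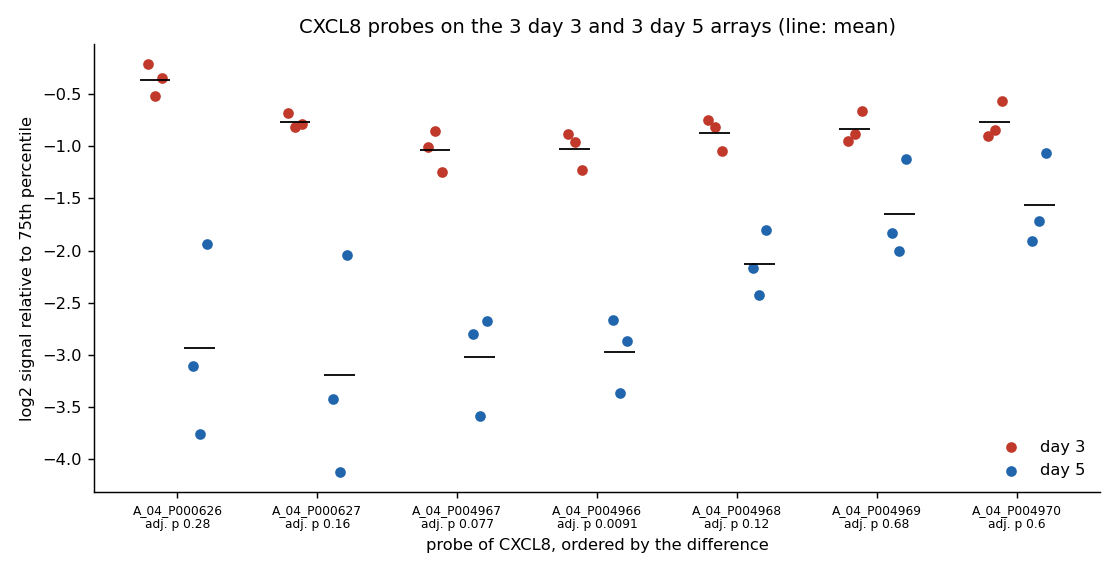
Level of the 7 CXCL8 probes on the 3 day 3 and the 3 day 5 arrays (log2 relative to the array's 75th percentile), with the mean as a line and the adjusted p of each probe below its name. On every probe the day 5 arrays lie below the day 3 arrays, and the differences run from -2.57 to -0.80.

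The unnamed probe of the tag DN883437 had a measured difference of -4.35 (SE 0.49, adjusted p = 0.0139). No day 5 array was well above background for it, so the day 3 level was at least 5.86-fold higher. No control array and no day 7 array measured it either. Its call ended when the slide entered the fit as a block (adjusted p = 0.144) and with normexp background correction, where the difference was -0.23. It ended without each of the 3 day 5 arrays in turn (0.0828 to 0.113). Just outside the threshold, the next 5 probes all had an adjusted p of 0.0767. They were the second CXCL8 probe, 2 of HSD11B1, 1 of TIMP1, and 1 of NCKAP5 at 1.47. NCKAP5 falls outside the naming rule and was chosen with its value known.

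Acute-phase genes held large differences, without a call on the processed signals. These genes are classically induced in the liver by inflammatory cytokines, and some are also made in inflamed tissue. Of 6 measured members of the acute-phase list 0 were called, against 0.0134% of all genes, and the median was -1.15 against 0.02 over all genes. That median depended on which members the filter left in: it was -2.38 over probes above background on all 6 arrays and -0.09 over probes above background in any of the 4 groups. The median within the slides was -0.59, -1.44 and -1.40. SAA3 is an acute-phase serum amyloid A, and the array describes its probe as a serum amyloid A3 pseudogene. It read 8.50, 8.80 and 9.44 on day 3 and 6.58, 6.0 and 7.11 on day 5, with the controls at 3.01 ± 1.16 (SD, n = 3). The difference was -2.35 (SE 0.52, adjusted p = 0.197), a 5.09-fold lower level, and day 5 was still above the controls by 3.55 (adjusted p = 0.00473). The days did not overlap, and both lay above every control array.

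With normexp correction SAA3 was called lower on day 5 (adjusted p = 0.0251). Both other serum amyloid A transcripts followed the same order of levels, and both were also called with normexp correction (adjusted p = 0.0216 each). LOC100009168 read 4.26, 5.86 and 6.41 on day 3 and 2.52, 2.45 and 2.01 on day 5, a difference of -3.18 (adjusted p = 0.14). LOC100009259 read 6.05, 6.69 and 7.16 on day 3 and 3.91, 3.67 and 4.45 on day 5, a difference of -2.63 (adjusted p = 0.131). Their probes can share transcripts. The array lists the second probe for both of these loci, and its sequence resembles that of SAA3: in the best ungapped alignment 42 of 47 bases are identical, and the 5 that differ are in capitals below.
SAA3 probe A_04_P000811: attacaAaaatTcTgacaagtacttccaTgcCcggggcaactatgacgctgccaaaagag
LOC100009259 probe A_04_P004476: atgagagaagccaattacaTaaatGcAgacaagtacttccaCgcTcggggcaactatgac

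HP, haptoglobin, which binds free hemoglobin, read 6.20, 6.06 and 6.71 on day 3 and 4.88, 3.21 and 3.64 on day 5. The difference was -2.41 (SE 0.55, adjusted p = 0.214) and -2.29 on its second probe. With normexp correction HP was called lower (adjusted p = 0.0232). Day 5 remained above the controls by 3.35 (adjusted p = 0.00912). The other measured acute-phase members were the inhibitor heavy chain ITIH4 at 0.04, the fibrinogen chain FGB at 0.14 and C-reactive protein CRP at 0.39, so that the list split into 3 large negative values and 3 values near 0. The arrays did not overlap for the 3 transcripts with large values, nor for CRP, which lay higher on day 5.

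Genes of heme, iron and oxidative stress lay mostly lower on day 5. Free heme from the clot is split by heme oxygenase, and the freed iron is bound or exported with the help of ceruloplasmin. Of 17 measured members 0 were called, against 0.0134% of all genes, and 13 were below and 4 above zero. All day 5 arrays lay below all day 3 arrays for 5 members, against 7.53% of all genes, and the median was -0.19. CP, ceruloplasmin, read 6.09, 6.76 and 6.70 on day 3 and 5.73, 5.69 and 5.30 on day 5. Its difference was -0.94 (SE 0.22, adjusted p = 0.239), with no overlap between the days, and CP was called lower with normexp correction (adjusted p = 0.0398). GCLM, which encodes the modifier subunit of glutamate-cysteine ligase in glutathione synthesis, had -0.73 (adjusted p = 0.357), and all 5 of its probes were lower. The probe that the array describes as heme oxygenase 1, which has no name through the gene table, read 0.55, 1.01 and 2.15 on day 3 and -0.13, -0.25 and 0.62 on day 5. Its difference was -1.15 (SE 0.37, adjusted p = 0.473), and the lowest day 3 array was below the highest day 5 array.

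TIMP1, an inhibitor of matrix metalloproteinases, lay just outside the threshold. It read 6.98, 7.24 and 8.01 on day 3 and 5.84, 5.19 and 5.49 on day 5, with the controls at 3.92 ± 0.21 (SD, n = 3). The difference was -1.90 (SE 0.28, adjusted p = 0.0767), a 3.73-fold lower level, and no day 5 array reached the day 3 range. TIMP1 was called lower in 4 alternatives, with normexp correction (-2.20, adjusted p = 0.00608), array weights, a trended robust prior and the mean over a gene's probes, the last 3 with an adjusted p of 0.00386 to 0.047. TIMP1 has 1 tested probe, so the mean over its probes holds the same values. That alternative differs only in being fitted and adjusted over genes instead of probes. The gelatinase MMP9 read 0.22, 0.91 and 0.42 on day 3 and -0.88, -1.15 and -0.82 on day 5. Its difference was -1.47 (SE 0.33, adjusted p = 0.214), and on day 5 it was below the controls by 1.71 (adjusted p = 0.0232 for that comparison). PLAU, the urokinase that activates plasminogen, had -0.48 (adjusted p = 0.672). The 21 measured matrix proteases and inhibitors had a median of -0.02, with 3 members whose arrays all lay below and 0 above, against 7.53% and 7.58% of all genes. With normexp correction that median was 0.046.

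**Figure D3:**
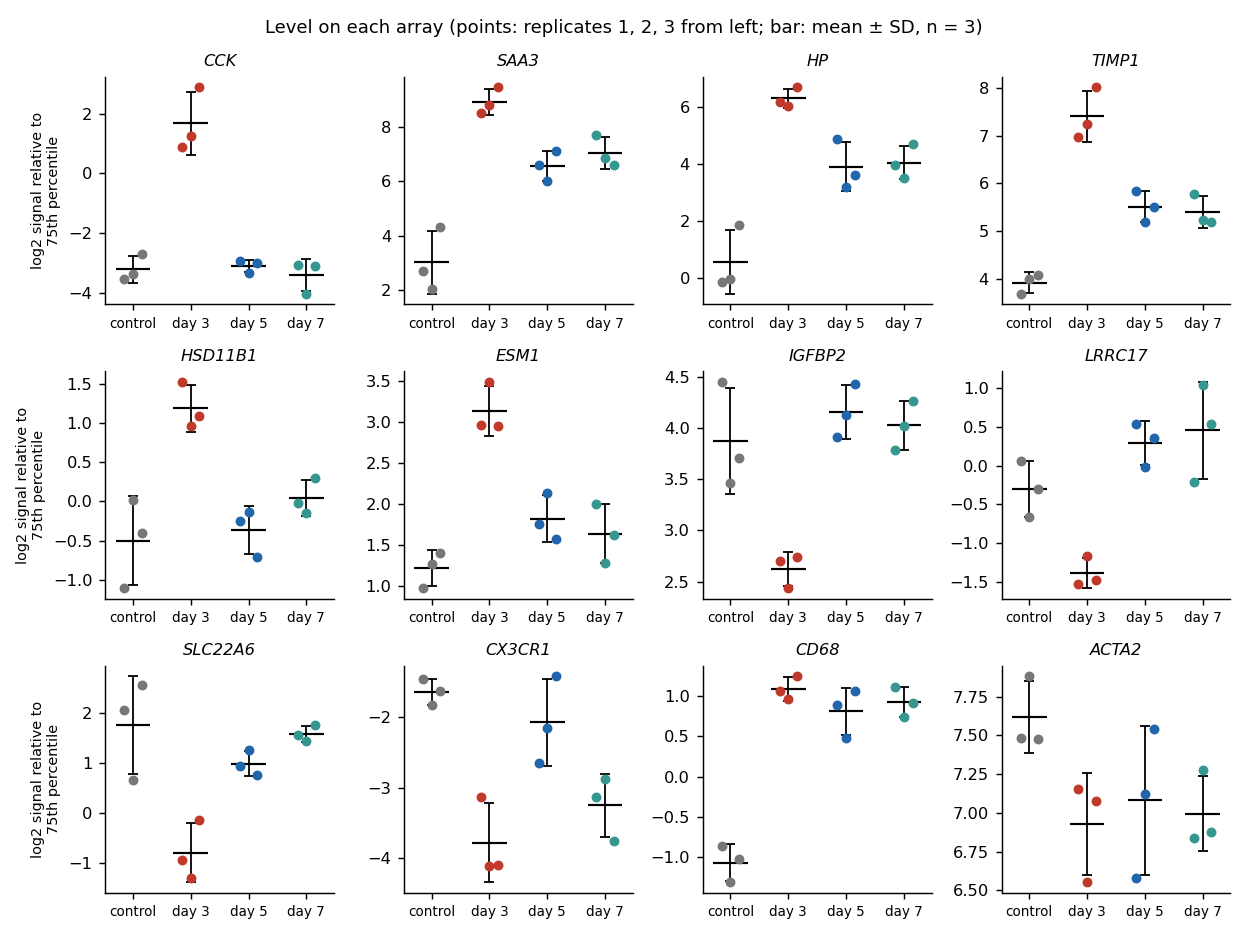
Level of 12 genes on each array of the 4 groups (log2 relative to the array's 75th percentile), with the mean and SD of 3 arrays per group; each panel has its own scale. CCK on day 5 differs from the controls by 0.12, SAA3, HP and TIMP1 lie between day 3 and the controls, and ACTA2 overlaps between the days.

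Among cytokines and chemokines, the signals that recruit and steer immune cells, 0 of 21 measured genes were called, against 0.0134% of all genes. Of the 21 genes 14 were below and 7 above zero, and the median was -0.29. With normexp background correction that median was 0.00. IL10, an anti-inflammatory cytokine, read -2.90, -2.33 and -1.12 on day 3. No day 5 array and no control array was well above background for it, which puts the day 3 mean at least 4.50-fold higher (-2.17 on the log2 scale). The measured IL10 difference was -2.58 (adjusted p = 0.14), and its 95% interval, -3.65 to -1.51, reached smaller differences than this bound. With normexp correction the IL10 difference was -0.095. IL6, an inflammatory cytokine that drives the acute phase, read -3.22, -3.62 and -1.76 on day 3. It was not well above background on day 5, which puts the day 3 mean at least 2.54-fold higher (-1.35 on the log2 scale). The measured IL6 difference was -1.55 (limma, adjusted p = 0.473), and its 95% interval, -2.63 to -0.47, reached smaller differences than this bound. With normexp background correction the sign of the IL6 difference was turned (0.15).

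CCL2, which attracts monocytes, read 3.96, 2.40 and 2.99 on day 3 and 1.71, 1.33 and 1.75 on day 5. Its difference was -1.52 (SE 0.45, adjusted p = 0.432), and all 4 probes were lower, from -1.57 to -1.46. CCL19, which guides lymphocytes and dendritic cells, had -1.49 (adjusted p = 0.283), with 0.07 after normexp background correction. IL1B, interleukin 1 beta, had -1.28 (SE 0.66, adjusted p = 0.751). LOC100346285, a granzyme A-like protease gene of the lymphocyte list, read 3.27, 3.72 and 2.79 on day 3 and 1.28, 1.57 and 2.02 on day 5. With normexp correction LOC100346285 was called lower (adjusted p = 0.0216). Its difference was -1.63 (SE 0.31, adjusted p = 0.14), and day 5 remained above the controls by 2.53 (adjusted p = 0.00186). The days did not overlap for CCL2, CCL19, IL1B or the granzyme A-like gene. The summed level of the 3 lymphocyte markers with a probe was 0.916 to 1.86 on day 3 and 0.674 to 1.77 on day 5. Of these markers 2, CD3D and CD79B, were well above background on every day 3 array, and 1 marker was so on every day 5 array. CD3E, like CD3D a marker of T cells, was not well above background on any day 3 array, but was on at least 1 day 5 array. The part of these levels in the result for the granzyme A-like gene was not tested. Of the 10 measured neutrophil genes 0 were called (0.0134% of all genes), 6 were below and 4 above zero, and the median was -0.49. That median was -0.093 with normexp correction and -0.25 with array weights, and -0.32, 0.05 and -0.33 within the slides. FPR1, a formyl peptide receptor of this list, had 1.39 (adjusted p = 0.452), with 1 of 3 day 3 arrays above background.

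Most genes of cell division had values below zero, without a single call. The lists hold kinases, checkpoint and spindle proteins of mitosis, and the enzymes that copy DNA. Of 35 measured cell cycle genes 0 were called, against 0.0134% of all genes. Among them 30 were below zero, and 17 had all 3 day 5 arrays below all 3 day 3 arrays, against 7.53% of all genes. The median was -0.64, with -0.61, -0.75 and -0.44 within the slides. With normexp background correction, which adds an offset of 50 to each signal, the median was 0.02 and 17 of 35 members were below zero. Of 22 measured DNA replication genes 0 were called (0.0134% of all genes), 21 were below zero and 8 did not overlap, with a median of -0.38. After normexp correction 12 were below zero with a median of -0.08. Against the controls, 22 cell cycle genes were called higher on day 3 (5.07% of all genes) and 11 on day 5 (2.03% of all genes).

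CDC20, which activates the ubiquitin ligase that starts chromosome separation, read -0.87, -0.49 and -0.21 on day 3 and -1.91, -1.82 and -1.73 on day 5. Its difference was -1.30 (SE 0.26, adjusted p = 0.154). BUB1B, a kinase of the spindle checkpoint, read -1.38, -0.77 and -0.75 on day 3 and -2.46, -2.19 and -2.11 on day 5, a difference of -1.28 (adjusted p = 0.156) with all 4 probes lower. It was well above background on no control array, and it was called higher than the controls on both days. MKI67, the proliferation antigen Ki-67, had -1.02 (adjusted p = 0.336), and the condensin subunit NCAPG had -0.95 (adjusted p = 0.483). CDK1, the cyclin-dependent kinase of mitotic entry, read -0.21, 0.29 and 0.43 on day 3 and -1.06, -0.76 and 0.09 on day 5, and its days overlapped. RRM2, the small subunit of ribonucleotide reductase, read -2.18, -1.44 and -1.89 on day 3 and -3.32, -3.28 and -3.60 on day 5, a difference of -1.56 (adjusted p = 0.167). MCM5, a subunit of the replicative helicase, had -1.11 (adjusted p = 0.352), measured on 1 of 3 day 5 arrays, and 0.24 with normexp correction. CDKN1A, the p53 target that halts the cell cycle, also read lower on day 5, at -1.39 (SE 0.32, adjusted p = 0.234).

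**Figure D4:**
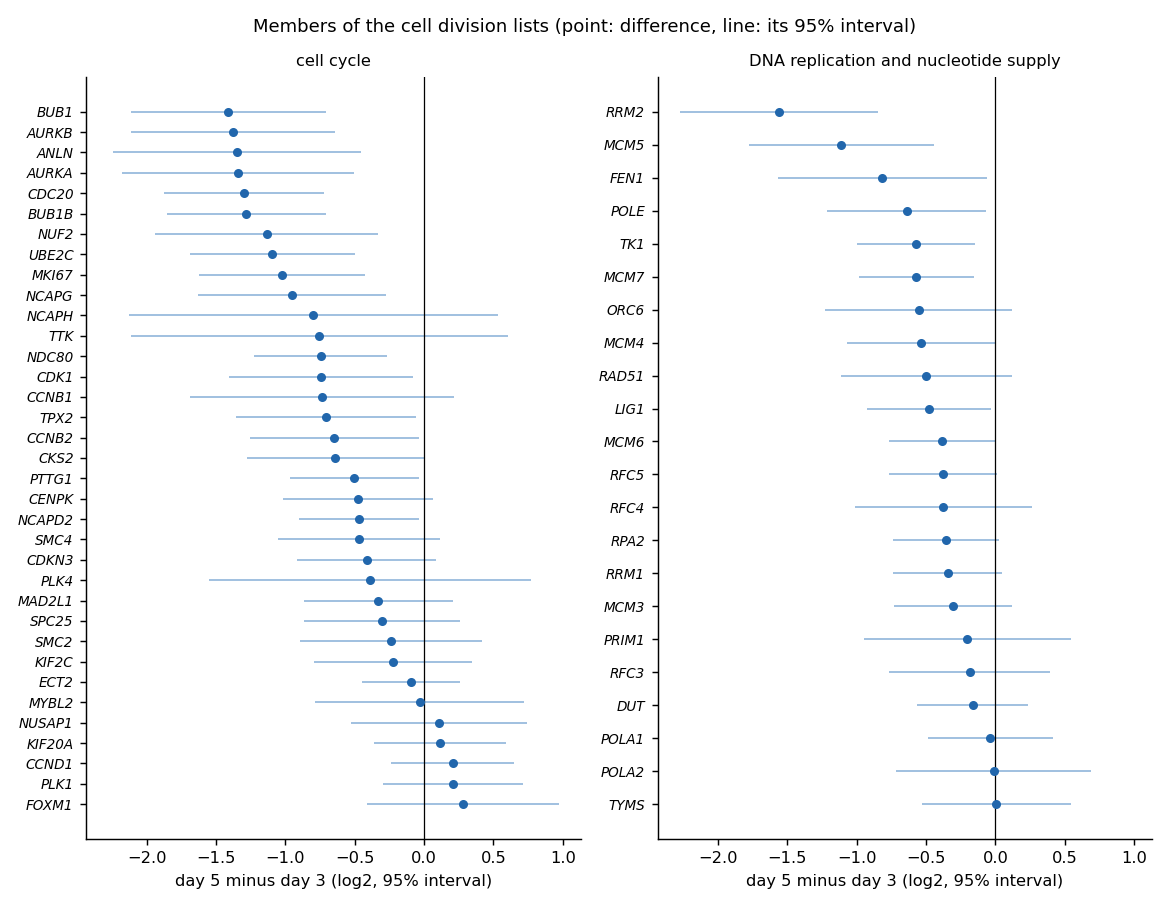
Difference between day 5 and day 3 (log2) with its 95% interval for the 35 measured cell cycle genes and the 22 measured DNA replication genes. Of these, 30 and 21 lie below zero, and none was called, against 0.0134% of all genes.

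Metabolic genes gave small differences with a few larger values. HSD11B1, the dehydrogenase that regenerates active glucocorticoid, read 1.53, 0.96 and 1.08 on day 3 and -0.25, -0.13 and -0.71 on day 5. HSD11B1 was called lower with normexp correction (adjusted p = 0.0251). Its difference was -1.55 (SE 0.28, adjusted p = 0.127), all 5 probes gave -1.55 to -1.53, and the days did not overlap. LDHA, lactate dehydrogenase A of anaerobic glycolysis, read 3.04, 3.29 and 3.63 on day 3 and 2.29, 2.25 and 2.34 on day 5, a difference of -1.03 (SE 0.21, adjusted p = 0.161) with 5 of 5 probes lower, and LDHA was called lower with normexp correction (adjusted p = 0.0251). GAPDH, a glycolytic enzyme often used as a reference, had -0.74 (adjusted p = 0.439). Over the 27 measured glycolysis and hypoxia genes the median was -0.16, with 7 below without overlap and 3 above, against 7.53% and 7.58% of all genes. With normexp background correction that median was 0.07.

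All 10 measured genes of cholesterol synthesis were below zero, with 0 called against 0.0134% of all genes and 4 without overlap against 7.53%. Their median was -0.30, while with normexp correction 6 of 10 were below zero and the median was -0.02. ACAT2, an acetyl-CoA acetyltransferase, had -0.69 (SE 0.16, adjusted p = 0.214) and EBP, a sterol isomerase, -0.52 (adjusted p = 0.406). LOC100346306, described as similar to an acyl-CoA desaturase, had -1.15 (adjusted p = 0.127). Both ACAT2 (adjusted p = 0.0434) and LOC100346306 (0.0216) were called lower with normexp correction. PDK4, a kinase that holds back pyruvate oxidation, had -1.30 (adjusted p = 0.58). Of 35 respiratory chain genes 26 were below zero, with a median of -0.08, while with normexp correction 34 were below zero with a median of -0.35, and with quantile normalization 21.

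In the vessel wall, the endothelial gene ESM1, which encodes the secreted proteoglycan endocan, read 2.96, 3.49 and 2.95 on day 3 and 1.75, 2.13 and 1.57 on day 5. Its difference was -1.32 (SE 0.23, adjusted p = 0.127), all 5 probes were lower, and the days did not overlap. ESM1 was called lower with normexp correction (adjusted p = 0.0248). VWF, the von Willebrand factor of endothelium and platelets, had -0.60 (adjusted p = 0.541). CYGB, cytoglobin, a heme protein of fibroblasts and muscle, read -0.047, -0.0046 and 0.12 on day 3 and -0.71, -1.09 and -0.96 on day 5, a difference of -0.94 (SE 0.15, adjusted p = 0.0906). DLGAP1, a scaffold protein of synapses, was not well above background on day 5, which puts the day 3 mean at least 1.97-fold higher (-0.98 on the log2 scale). Its measured difference was -1.04 (limma, adjusted p = 0.0906), with a 95% interval of -1.39 to -0.69 that reached smaller differences than this bound. The sign of the DLGAP1 difference was turned with normexp correction (0.32). The summed linear level of the 5 endothelial markers with a probe was 73.5 to 82.7 on day 3 and 45.3 to 73.4 on day 5. Most of that sum came from VWF alone, and the median difference of the 4 tested markers was -0.033. KDR, a defining marker, was not well above background on any day 3 array. The other 4 markers, PECAM1, VWF, CLDN5 and NOS3, were well above background on every array of both days. The part of the summed level in the result for ESM1 was not tested.

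Of the contractile and vasoactive genes 0 were called, against 0.0134% of all genes. The genes of endothelin and nitric oxide had differences near zero. Smooth muscle shortens through actin and myosin, and endothelin and nitric oxide set its tone. Of 35 contractile smooth muscle genes 0 were called, and the median was 0.02, or -0.16 with normexp correction. Over the 18 measured vasoconstrictor genes the median was 0.00489, with 9 above zero, while with normexp correction 15 were above zero with a median of 0.35. The 21 measured vasodilator genes had a median of 0.08, and 0.17 with normexp correction. ACTA2, smooth muscle actin, read 7.16, 6.55 and 7.08 on day 3 and 6.58, 7.12 and 7.54 on day 5, a difference of 0.15 (95% interval -0.41 to 0.71). MYH11, smooth muscle myosin, had 0.15 (-0.49 to 0.80). EDNRA, the endothelin receptor of smooth muscle, had -0.10 (-0.42 to 0.23), EDN1, endothelin 1, 0.10 (-0.44 to 0.65), and NOS3, endothelial nitric oxide synthase, 0.19 (-0.50 to 0.89). These intervals leave out a 2-fold difference for all 5 genes. COL1A1, a chain of fibrillar collagen, read 4.42, 4.20 and 4.34 on day 3 and 4.46, 4.24 and 4.43 on day 5 (difference 0.06, -0.44 to 0.56), and on both days it was called higher than in the controls (adjusted p = 0.00234 and 0.0041). The signs of these 6 small differences turned under at least 1 alternative. Other vasoactive genes had larger values. PTGS2, the inducible cyclooxygenase of prostaglandin synthesis, had -0.92 (SE 0.44, adjusted p = 0.725) and ADRA2A, an adrenergic receptor, 0.87 (SE 0.40, adjusted p = 0.704), both with overlapping days. HTR2A, a serotonin receptor, had -0.75 (adjusted p = 0.768) and ADORA2B, an adenosine receptor, -0.68 (adjusted p = 0.654), both without overlap.

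On the other side, no gene was called higher on day 5. IGFBP2, which binds insulin-like growth factors, read 2.70, 2.43 and 2.74 on day 3 and 3.91, 4.13 and 4.44 on day 5. The difference was 1.53 (SE 0.25, 95% interval 0.99 to 2.08, adjusted p = 0.106), a 2.90-fold higher level without overlap, and the controls were at 3.88 ± 0.52 (SD, n = 3). Without control replicate 1 the adjusted p was 0.0492. LRRC17, a secreted leucine-rich repeat protein that the array describes as similar to a slit protein, read -1.53, -1.17 and -1.47 on day 3 and 0.54, -0.01 and 0.36 on day 5, a difference of 1.69 (adjusted p = 0.127), and LRRC17 was called higher with normexp correction (adjusted p = 0.0472). ENPP6, a choline phosphodiesterase, read -1.26, -1.54 and -0.88 on day 3 and 0.12, 0.30 and 0.90 on day 5, a difference of 1.67 (adjusted p = 0.134). FGF12, an intracellular relative of the fibroblast growth factors that binds sodium channels, had 1.58 (adjusted p = 0.149), with all 5 probes higher. RECQL, a DNA helicase, had 1.02 (adjusted p = 0.118).

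For 3 of these genes the day 5 level was close to that of the controls. Day 5 minus controls was 0.28 for IGFBP2, 0.04 for ENPP6 and 0.28 for FGF12, while day 3 minus controls was -1.25, -1.63 and -1.29 (adjusted p = 0.0129, 0.0103 and 0.0294). An exception was LPCAT2, an enzyme of phospholipid remodelling and platelet-activating factor synthesis, which was well above background on no control and no day 3 array. Its day 5 level was at least 1.26-fold higher than that of day 3 (adjusted p = 0.151) and was called against the controls (adjusted p = 0.00628). For growth factors and their receptors, 8 of 30 measured genes lay above without overlap and 3 below, against 7.58% and 7.53% of all genes, with a median of 0.07, while with normexp correction 24 were above zero with a median of 0.35. IGFBP4, a further binding protein of the same family, had the opposite sign to IGFBP2, at -0.95 (adjusted p = 0.237).

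Transporters of the barrier between blood and brain and of the leptomeninges, the membranes that wrap the brain surface and its arteries, were mostly above zero. Of 17 measured members 13 were above and 4 below, 6 lay above without overlap and 0 below, against 7.58% and 7.53% of all genes, and the median was 0.19. The slides gave 0.55, 0.29 and 0.47. SLC22A6, an organic anion transporter, read -0.94, -1.32 and -0.14 on day 3 and 0.95, 1.25 and 0.75 on day 5. Its difference was 1.78 (SE 0.42, adjusted p = 0.237), and the controls were at 1.76 ± 0.98 (SD, n = 3). SLC22A8, a related transporter, had 1.26 (SE 0.65, adjusted p = 0.752), with overlapping days. SLCO1A2, another organic anion transporter, was not well above background on any day 3 array and was measured on all 3 day 5 arrays, which puts day 5 at least 1.60-fold higher (limma, adjusted p = 0.131). PTGDS, the prostaglandin D synthase of the leptomeninges, read 8.65, 8.65 and 8.92 on day 3 and 9.49, 9.51 and 9.43 on day 5, a difference of 0.73 (adjusted p = 0.481). The summed linear level of the 5 measured fibroblast and leptomeningeal markers, which include SLC22A6 and PTGDS, was 623 to 723 on day 3 and 929 to 942 on day 5. Most of that sum came from PTGDS alone, and the median difference of the 5 markers was 0.058. The part of the summed level in the transporter values was not tested.

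Genes of nervous tissue had high values on few members. CSPG5, a proteoglycan of nervous tissue, read -2.66, -2.75 and -4.72 on day 3 and -1.79, -0.88 and -1.26 on day 5, a difference of 2.06 (adjusted p = 0.237). SCG5, a neuroendocrine secretory protein, was not well above background on day 3, which puts the day 5 mean at least 1.95-fold higher (0.96 on the log2 scale). Its measured difference was 1.65 (limma, adjusted p = 0.176), with a 95% interval of 0.88 to 2.43 that reached slightly below this bound. The 6 measured neural and glial genes had a median of 0.47, which was 0.07 without the 4 arrays of slide 3. Within the slides it was 0.34, 0.13 and 1.45. With array weights it was 0.16 with 3 of 6 members above zero, and over the alternatives it ran from -0.0088 to 0.80. ATP1B2, a subunit of the sodium pump in glia and neurons, had 0.93 (adjusted p = 0.147). LOC100352139, described as similar to a neuronal protein, had 1.12 (adjusted p = 0.151).

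Macrophage and complement genes had small differences between the days, with most members above zero. Of 17 measured macrophage genes 0 were called between the days, against 0.0134% of all genes. Of the 17 genes 11 were above and 6 below zero, and the median was 0.12, or -0.11 without day 5 replicate 3. Against the controls, 9 were called higher on day 3 (5.07% of all genes) and 12 on day 5 (2.03% of all genes). The summed level of the 3 macrophage markers with a probe was 12.8 to 17.9 on day 3 and 15.2 to 21.3 on day 5, while their median difference was -0.12. CD68, a lysosomal protein of macrophages, read 1.07, 0.96 and 1.25 on day 3 and 0.89, 0.48 and 1.06 on day 5, a difference of -0.28 (95% interval -0.70 to 0.13). CD14, a receptor for bacterial lipopolysaccharide, had 0.37 (-0.11 to 0.84). CX3CR1, the fractalkine receptor of monocytes and microglia, read -3.14, -4.12 and -4.11 on day 3 and -2.65, -2.16 and -1.41 on day 5. Its difference was 1.72 (SE 0.35, adjusted p = 0.155), with 1 of 3 day 3 arrays above background and the controls at -1.64 ± 0.19 (SD, n = 3).

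Of 13 measured complement genes 9 were above zero and 3 lay above without overlap, against 7.58% of all genes, with a median of 0.08. C3, the central complement component, read 0.88, -0.08 and 0.60 on day 3 and 1.85, 1.11 and 2.62 on day 5. Its difference was 1.39 (SE 0.39, adjusted p = 0.385), and it was called against the controls on day 5 (adjusted p = 0.0427) but had 0.39 on day 3 (adjusted p = 0.626). C1S, a protease of the first component, had 0.62 (adjusted p = 0.409). IL13RA2, a decoy receptor of interleukin 13, was not well above background on any day 3 array. That puts the day 5 mean at least 2.73-fold higher (1.45 on the log2 scale). Its measured difference was 2.14 (limma, adjusted p = 0.237), with a 95% interval of 1.04 to 3.25 that reached smaller differences than this bound. Of 15 interferon response genes 10 were below zero, and the medians within the slides were -0.20, -0.69 and 0.57, so that the slides did not have a common sign.

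Globin transcripts, which mark red blood cells, varied between the slides. HBA, an alpha globin, read 4.24, 5.09 and 6.54 on day 3 and 6.26, 5.53 and 6.47 on day 5, and the days overlapped (difference 0.79, adjusted p = 0.815). The median of the 3 measured erythroid genes was 2.0, 0.71 and -0.077 within the slides. The summed level of the red blood cell markers was 63.1 to 353 on day 3 and 171 to 469 on day 5. CRYBA4, a lens crystallin, read 1.95, 2.79 and 2.43 on day 3 and 2.42, 0.74 and 2.51 on day 5, against controls at -2.22, with a difference of -0.50 (adjusted p = 0.921).

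**Figure D5:**
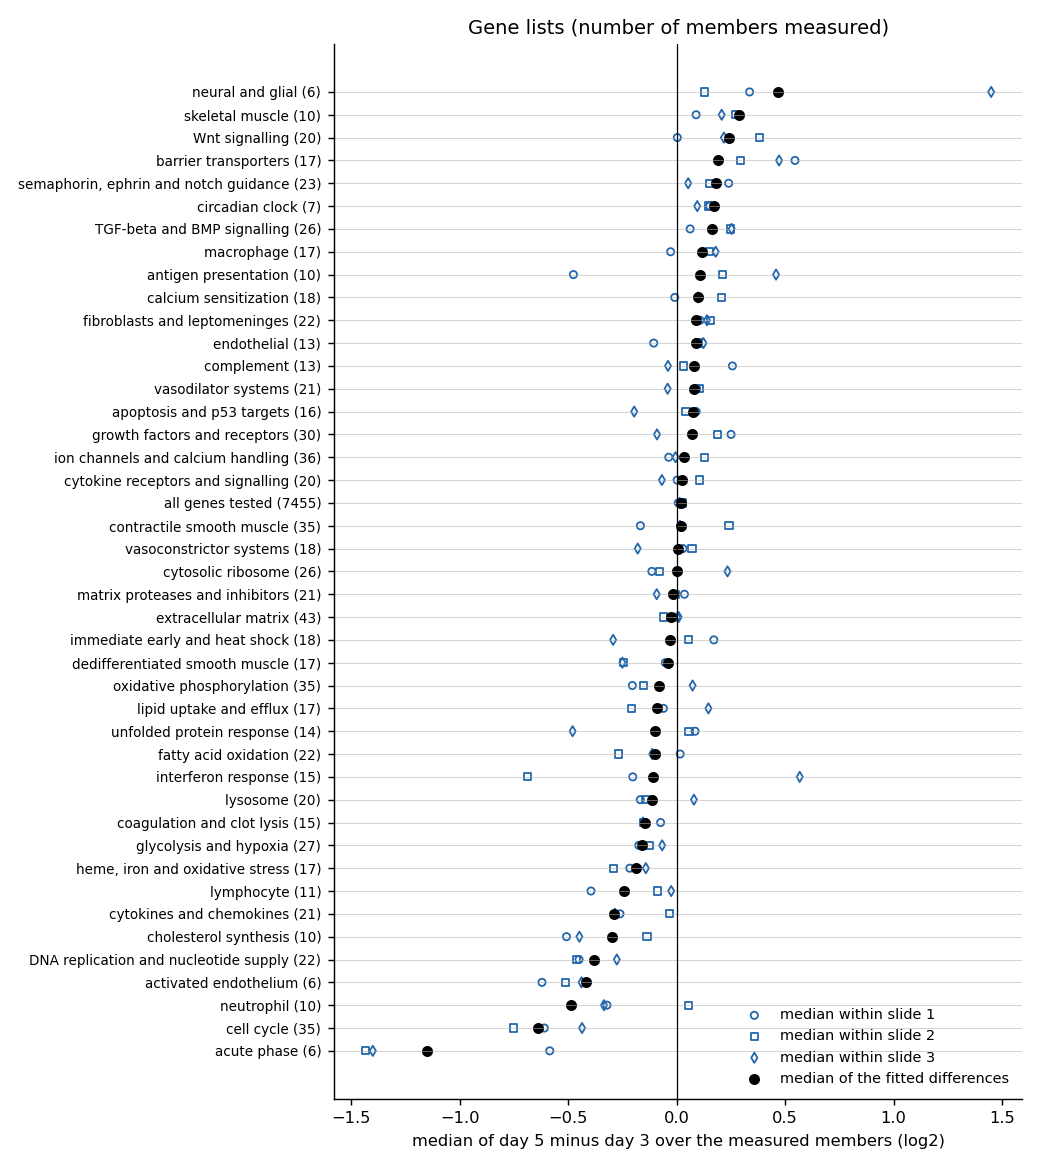
Median difference between day 5 and day 3 (log2) over the measured members of each gene list with at least 5 of them, with the median within each of the 3 slides as open symbols. Acute phase at -1.15, a value that depends on the filter, and cell cycle at -0.64 lie lowest. Neural and glial genes at 0.47, a value that depends on slide 3, lie highest, and all 7455 genes together are at 0.02.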

How the data were processed

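Single-colour arrays of 12 samples were used, with groups taken from the source names. The authors deposited scanner output of Agilent Feature Extraction 9.5.1.1 (named in the submitters' processing notes). Their processed signal, per the file headers, is a background-subtracted intensity that is not scaled between arrays, the mean and background signals are raw intensity values, and the flags are of the kind other (0 or 1). The authors' value table holds an intensity with the same median, 27.0, in every column; it was used as an alternative, and its direction and linear scale were checked against the scanner values (r of at least 0.994). Its centring method is not given in the sources used here.

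Control spots were left out, outlier spots set to missing, and the log2 processed signal of each array shifted so that its 75th percentile is 0. Probes well above background on all 3 arrays of day 3 or day 5 were tested, 26077 of 43623. Names came from the arrays' descriptions and accessions through a RefSeq gene table (mOryCun1.1): of all probes, 22902 carry 1 gene name, 86 carry several and 20635 carry no name. Coordinates are not printed. The probe sequences are those of the arrays. All 12 arrays entered a single fit of the 4 groups in limma 3.58.1 (R 4.3.3), tested on simulated data. A fold given as "at least" belongs to a probe that stayed near background on all arrays of one day: there each array counted as the larger of the probe's signal and that array's weakest signal called well above background. Such a fold compares the means of these values and carries no sampling error. An adjusted p given with it belongs to the measured difference, whose 95% interval can reach smaller folds.

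Same-numbered day 3 and day 5 arrays share a slide, and their deviations from the group means correlated at 0.12, 0.30 and 0.42. Between day 3 and day 5 arrays of unlike number the correlations ran from -0.41 to 0.26. The slide was used as a block in an alternative. The named genes are up to 15 called genes per direction without overlap, filled up to 10 by the smallest p, up to 4 called or the 2 leading members of each list, and fixed genes of vasospasm. The comparison, gene lists and fixed genes were chosen with earlier results of these data known.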

Additional observations from a re-analysis of the deposited data

How the results depend on the processing

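The number of probes called between the days was 56 with normexp background correction (5 higher, 51 lower), 904 with array weights (502 higher, 402 lower; day 5 replicate 2 had a weight of 4.57 and day 5 replicate 3 one of 0.327), 6 with a trended robust prior, and 0 in fits of the 6 arrays alone, with or without the replicate block, where 3522 and 2081 probes had an unadjusted p below 0.05. It ranged from 0 (without day 5 replicate 3) to 5 without single arrays. It was 0 without the 4 arrays of slide 1, 2 or 3, an alternative chosen after seeing the data (1466, 1102 and 2177 at an unadjusted p below 0.05). Called genes were 19, 286, 2 and 0 in the same order, 0 to 2 without single arrays and 0 without a slide. Of the single genes recomputed under each alternative, 13 more were called with normexp correction and 55 with array weights. The cause of the spread between these counts was not tested. With the replicate block 2 probes were called, and apart from DN883437 the block changed no call between day 5 and day 3 named here. The calls of single genes against the controls were not recomputed with the block. Day 3 against control gave 1010 and 974 probes with normexp correction and with no filter, instead of 1765, and day 5 against control 240 and 345, instead of 546. Signs turned with normexp correction for IL6 (0.15), CCL19 (0.071), MCM5 (0.24), DLGAP1 (0.32), COL1A1 (-0.23), ACTA2 (-0.16), MYH11 (-0.15) and NOS3 (-0.020). Normexp correction moved the median of all genes to 0.10. Without single arrays the difference ranged from -0.076 to 0.40 for ACTA2, -0.0025 to 0.13 for COL1A1, -0.81 to 0.079 for CRYBA4, -0.17 to 0.25 for EDN1, -0.17 to 0.0069 for EDNRA, -5.62 to 0.32 for LOC100008796 and -4.35 to 0.18 for LOC100009480. EDN1 had -0.045 with array weights and -0.12 without slide 3, ACTA2 -0.055 and -0.0018 without slides 2 and 3, and CRYBA4 0.28, LOC100008796 0.77 and LOC100009480 0.83 without slide 2. Signal over background limits what can be said of dim probes: DN883437, IL6, IL10 and SLCO1A2 are given as bounds.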

Other observations

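Some genes had large differences that rested on single arrays; they were chosen after their values were seen. LOC100008796, described as lipophilin CP, a small secreted protein of glands, read 7.76, 6.87 and 3.30 on day 3 and 5.63, -4.91 and 6.97 on day 5. The range of its level on day 5 was the widest of all genes, and its difference of -3.41 (adjusted p = 0.876) was 0.32 without day 5 replicate 2. LOC100009480, described as lipophilin CS, read 3.57, 3.16 and -1.17 on day 3 and 1.44, -6.42 and 2.63 on day 5. In both lipophilins the lowest array of each day was the same, replicate 3 on day 3 and replicate 2 on day 5.

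RLN1, the peptide hormone relaxin, read 0.43, 0.040 and 1.60 on day 3 and 2.08, 3.29 and 4.57 on day 5, a difference of 2.62 (adjusted p = 0.576) without overlap. LOC100344919, described as similar to vascular non-inflammatory molecule 3, read -0.86, 1.07 and 2.98 on day 3 and -1.92, -2.48 and -1.81 on day 5, a difference of -3.13 (adjusted p = 0.246). Like CCK, it had its highest day 3 level on replicate 3. KLHL32, a kelch-like protein, had a difference of 3.16 (adjusted p = 0.709), with 1 of 3 day 3 arrays well above background.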
